A study of Homo sapiens with 16 samples.

Results

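The ubiquitin-specific proteases (USPs), the largest family of deubiquitylating enzymes, were examined in Jurkat and HSB-2, established human cell lines of T-cell acute lymphoblastic leukemia (T-ALL) that the labels give as TAL1+, after knock-down of 1 of their members, USP7. The members were the rows of the count table whose gene symbol is USP followed by a number and at most 1 letter, without pseudogenes, antisense genes and chromosome Y. This gave 49 genes of 57820, all protein coding. The pseudogene USP41 and USP9Y were left out by the rule, and USP27X was not analysed here. Each line gave 4 groups of 2 libraries, namely wild-type cells, cells treated with a scrambled control sequence (called siRNA in the labels and shRNA in the series description), and cells that received a hairpin against USP7, either shRNA-4057 or shRNA-4058. RNA was depleted of ribosomal RNA in all of them. Scrambled cells were the main control and wild-type cells the other. Nothing in the labels says that replicates were separate cultures, so the p-values below measure the spread between these libraries, which may be technical. Residual USP7 transcript remained with both hairpins, so the cells model a partial loss of the enzyme.

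Ubiquitin is attached to proteins by a cascade of ligases, and deubiquitylating enzymes remove it again, which can spare a protein from the proteasome, change its partners or reset a histone mark. USPs are cysteine proteases that share a catalytic fold and differ in the domains around it, and several of them act on the same substrates. USP7 removes ubiquitin from MDM2, p53 and many chromatin proteins, and USP47 is its closest relative by sequence. The comparisons below ask whether other members moved when USP7 was lowered, and how the family differs between the lines.

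Total counts were between 76.6 M and 235 M per library (M, mega). All members counted together took between 0.353% and 0.443% of the counts of a library. Levels are CPM, counts scaled to the library size after TMM (trimmed mean of M-values) normalization, and they are divided by exon length in kb wherever genes are set against each other. The T-lineage markers CD3D, CD3E, CD7, LCK and TAL1 were at 96.9 CPM or more in each library, whereas CD2 was between 71.2 and 117 CPM in Jurkat and between 0.786 and 4.96 CPM in HSB-2. Markers of B cells, myeloid, erythroid and epithelial cells (MS4A1, CD14, LYZ, HBB and EPCAM) did not exceed 0.330 CPM in any library. Fewer cells of a type and less RNA per cell cannot be told apart in such libraries. Of the 49 members, 47 passed the filter on low counts. USP26 and USP29, which are enriched in the germline, had at most 3 counts in any library. USP6 and USP50 passed the filter but stayed at or under 0.242 CPM. A gene on the other strand overlaps 31 members (C9orf78 at USP20, DKK3 at USP47, THOC1 at USP14), and since the strand setting of the counting is not stated, reads of such pairs cannot be told apart.

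The sequences before the transcription start are shown for USP7, for its relative USP47 and for 4 members that moved in opposite directions in the 2 lines (USP11 and USP20, USP16 and USP34), because these 6 genes carry the results below. Each is the 250 bases before the most upstream RefSeq start, 5′ to 3′ on the strand of the gene, with GC boxes (GGGCGG or CCGCCC, the core bound by SP1-like factors) in capitals:
USP7: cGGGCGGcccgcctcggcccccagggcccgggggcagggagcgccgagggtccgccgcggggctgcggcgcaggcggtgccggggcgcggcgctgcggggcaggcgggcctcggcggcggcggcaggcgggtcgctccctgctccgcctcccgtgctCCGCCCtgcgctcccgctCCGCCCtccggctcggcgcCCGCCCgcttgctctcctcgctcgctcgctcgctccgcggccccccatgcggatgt
USP47: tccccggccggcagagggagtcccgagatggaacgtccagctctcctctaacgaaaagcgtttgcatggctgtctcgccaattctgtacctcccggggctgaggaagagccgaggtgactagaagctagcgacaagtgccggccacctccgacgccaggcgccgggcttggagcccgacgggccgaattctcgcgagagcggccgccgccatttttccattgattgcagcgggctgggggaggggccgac
USP11: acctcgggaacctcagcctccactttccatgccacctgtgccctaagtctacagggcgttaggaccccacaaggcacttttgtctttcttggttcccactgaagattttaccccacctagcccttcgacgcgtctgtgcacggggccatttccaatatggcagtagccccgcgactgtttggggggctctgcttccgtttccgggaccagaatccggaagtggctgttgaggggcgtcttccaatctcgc
USP20: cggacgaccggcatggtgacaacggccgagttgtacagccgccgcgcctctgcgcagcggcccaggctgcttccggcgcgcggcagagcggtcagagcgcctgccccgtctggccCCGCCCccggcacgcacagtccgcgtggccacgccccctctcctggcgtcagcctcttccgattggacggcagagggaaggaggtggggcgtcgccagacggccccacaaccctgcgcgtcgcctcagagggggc
USP16: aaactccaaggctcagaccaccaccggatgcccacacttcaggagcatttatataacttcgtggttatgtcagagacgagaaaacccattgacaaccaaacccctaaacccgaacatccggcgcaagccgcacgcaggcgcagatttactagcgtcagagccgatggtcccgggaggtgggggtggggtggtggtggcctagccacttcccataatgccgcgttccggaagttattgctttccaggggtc
USP34: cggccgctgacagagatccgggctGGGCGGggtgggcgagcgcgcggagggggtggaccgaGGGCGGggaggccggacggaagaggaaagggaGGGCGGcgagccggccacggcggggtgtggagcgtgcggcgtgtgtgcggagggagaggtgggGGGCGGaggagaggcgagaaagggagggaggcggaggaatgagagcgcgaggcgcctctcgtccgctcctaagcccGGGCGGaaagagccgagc

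In GRCh38.p14 these windows lie at chr16:8963907-8964156 on the minus strand (USP7), chr11:11841722-11841971 on the plus strand (USP47), chrX:47232759-47233008 on the plus strand (USP11), chr9:129835208-129835457 on the plus strand (USP20), chr21:29024418-29024667 on the plus strand (USP16) and chr2:61471088-61471337 on the minus strand (USP34). The USP7 window held 4 GC boxes and was 84.4% G and C. USP34 held 5 and USP20 held 1, and no GC box was found in the windows of USP47, USP11 and USP16. A RefSeq promoter was matched for 38 of the 49 members. A GC box on either strand was present in 76.3% of these 38 windows and in 42.2% of the 27305 windows of all genes. Windows of all genes were not limited to protein-coding genes or to genes with counts here. The E-box CANNTG, the motif class of E proteins and TAL1, was present in 44.7% of member windows and 62.2% of all windows, once each in USP47 and USP11 and not in the other 4 printed. A CCAAT box (CCAAT or ATTGG) was present in 23.7% and 33.0%. The windows of USP11 and USP20 differed in GC boxes, as did those of USP16 and USP34. A link between these motifs and the response was not tested.

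In control cells (2 wild-type and 2 scrambled libraries per line), levels per kb covered several orders of magnitude. USP22, the deubiquitylase of the SAGA coactivator complex, was the most abundant member in Jurkat at 67.8 ± 1.39 CPM per kb (SD, n = 4). USP11 followed at 48.6 ± 5.51 and USP7 at 44.4 ± 0.603 CPM per kb, and the ranges of these last genes overlapped. USP1, which acts on PCNA and FANCD2, came next with 33.9 to 41.4 CPM per kb, and overlapped USP39, a splicing factor without protease activity (31.4 to 36.2 CPM per kb).

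In HSB-2 the order was different. USP20, which acts on HIF1A and on membrane receptors, led with 84.2 ± 2.02 CPM per kb, against 25.2 ± 4.14 CPM per kb and 7th place in Jurkat. USP22 (56.1 ± 2.39), USP1 (42.8 ± 3.38) and USP5 (36.4 ± 1.23 CPM per kb) followed, the last of which takes apart free ubiquitin chains. USP7 was in 7th place in HSB-2 at 26.5 ± 1.17 CPM per kb, within the spread of USP39 at 26.9 ± 0.543 CPM per kb. In the plot of control levels most members differed by less than 2-fold between the lines and a few were far apart. Most members were nevertheless called different, as given below.

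**Figure D1:**
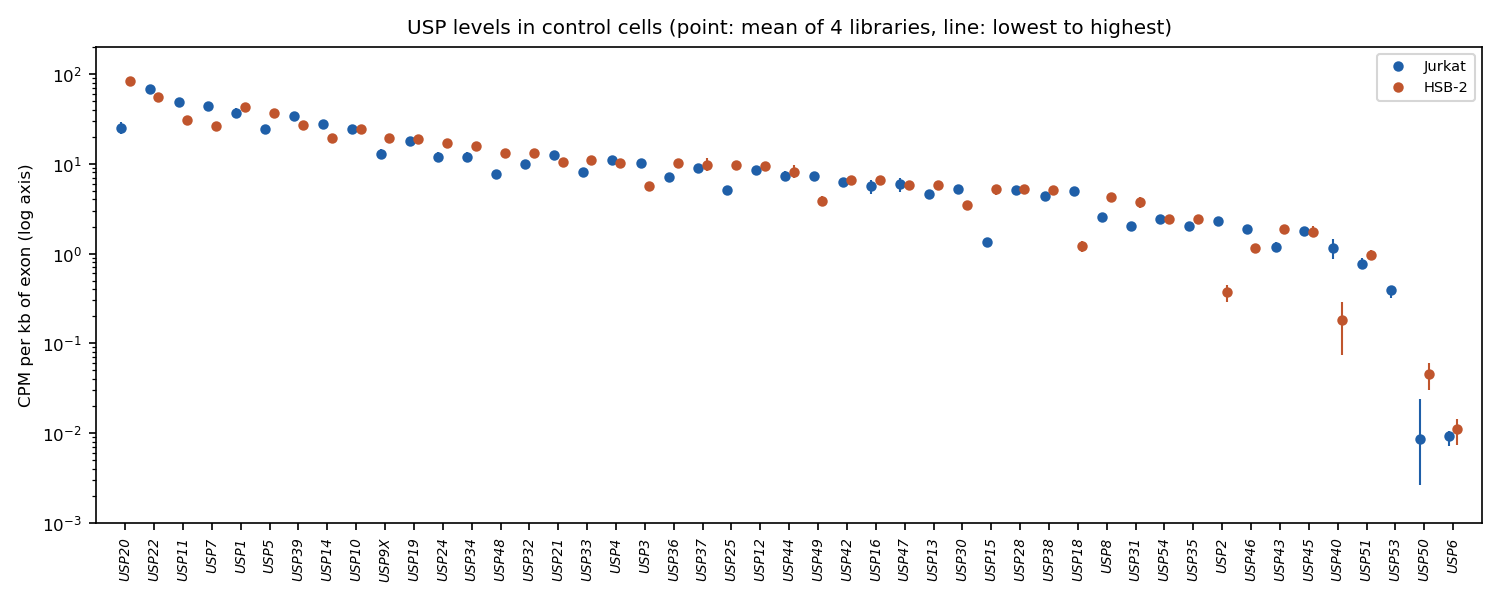
Levels in control cells in CPM per kb of exon (log axis) for the 47 members with the highest levels, ordered by the higher of the 2 lines, with points at the mean of 4 libraries and lines from the lowest to the highest. USP20 stands at 84.2 in HSB-2 and 25.2 in Jurkat, and USP53 is drawn for Jurkat alone because its mean in HSB-2 lies below the axis.

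Tested directly in control cells, 15 of 47 members were called higher in Jurkat and 26 higher in HSB-2, where a call is an adjusted p under 0.05 by edgeR's quasi-likelihood test over all genes. Among all genes tested, 38.8% were called higher in Jurkat and 38.6% higher in HSB-2. The median difference, Jurkat minus HSB-2, was -0.14 on the log2 scale over the members and -0.02 over all genes. Most members differed by less than 2-fold, with 4 called over 2-fold higher in Jurkat and 3 over 2-fold higher in HSB-2 (8.51% and 6.38% of members, beside 17.9% and 17.5% of all genes).

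The widest gap belonged to USP53, a member associated with tight junctions. Its levels were 4.91 and 3.8 CPM in Jurkat wild-type and 5.24 and 4.57 CPM in Jurkat scrambled cells. In HSB-2 controls, 3 of 4 libraries had no count and 1 had a single count. The ratio of Jurkat to HSB-2 controls was 3190 (95% exact interval 572 to 126066, which covers counting error only).

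USP40, whose substrates are little known, was 12.9 and 13.4 CPM in Jurkat wild-type cells and 2.73 and 2.52 CPM in HSB-2 wild-type cells. The log2 difference over all controls was 2.87 (SE 0.08). USP2, an enzyme of MDM2 and cyclin D1, was between 9.28 and 11.6 CPM in Jurkat controls and between 1.31 and 2.02 CPM in HSB-2 controls (log2 difference 2.63, SE 0.08). USP18, which removes the ubiquitin-like ISG15 and limits interferon signalling, was between 18.4 and 22.8 CPM in Jurkat controls and between 4.26 and 5.69 CPM in HSB-2 controls (2.03, SE 0.05). USP18 shares sequence with USP41, so how their reads were divided is uncertain. The ranges of the 2 lines did not overlap for any of these genes. Also higher in Jurkat were USP49 (0.92), USP3 (0.85), USP7 itself (0.74) and USP46 (0.68 on the log2 scale), with edgeR adjusted p 3.8e-12 or less.

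Higher in HSB-2 were USP15, USP20 and USP25. USP15, a regulator of SMAD signalling, was at 26.4 and 24.8 CPM in Jurkat wild-type and 107 and 112 CPM in HSB-2 wild-type cells, a log2 difference of -1.96 (SE 0.05). For USP20 the difference was -1.76 (SE 0.03) and for USP25, the paralog of USP28, it was -0.93 (SE 0.03). USP31 (-0.86), USP48 (-0.79), USP8 (-0.73), an endosomal enzyme, and USP43 (-0.64) followed. USP50 gave -2.47 (SE 0.54) at levels between 0.0106 and 0.242 CPM, so its value rests on few reads. Thus paralogs went separate ways, since USP15 was higher in HSB-2 while USP11 and USP4 were higher in Jurkat (0.64 and 0.11). USP47 (0.02, edgeR adjusted p 0.67), USP45, USP54, USP10, USP28 and USP6 were the 6 members not called. USP47 was called in wild-type cells alone (0.17, edgeR adjusted p 0.014) and with an offset for GC content and length (0.09, edgeR adjusted p 0.0041).

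**Figure D2:**
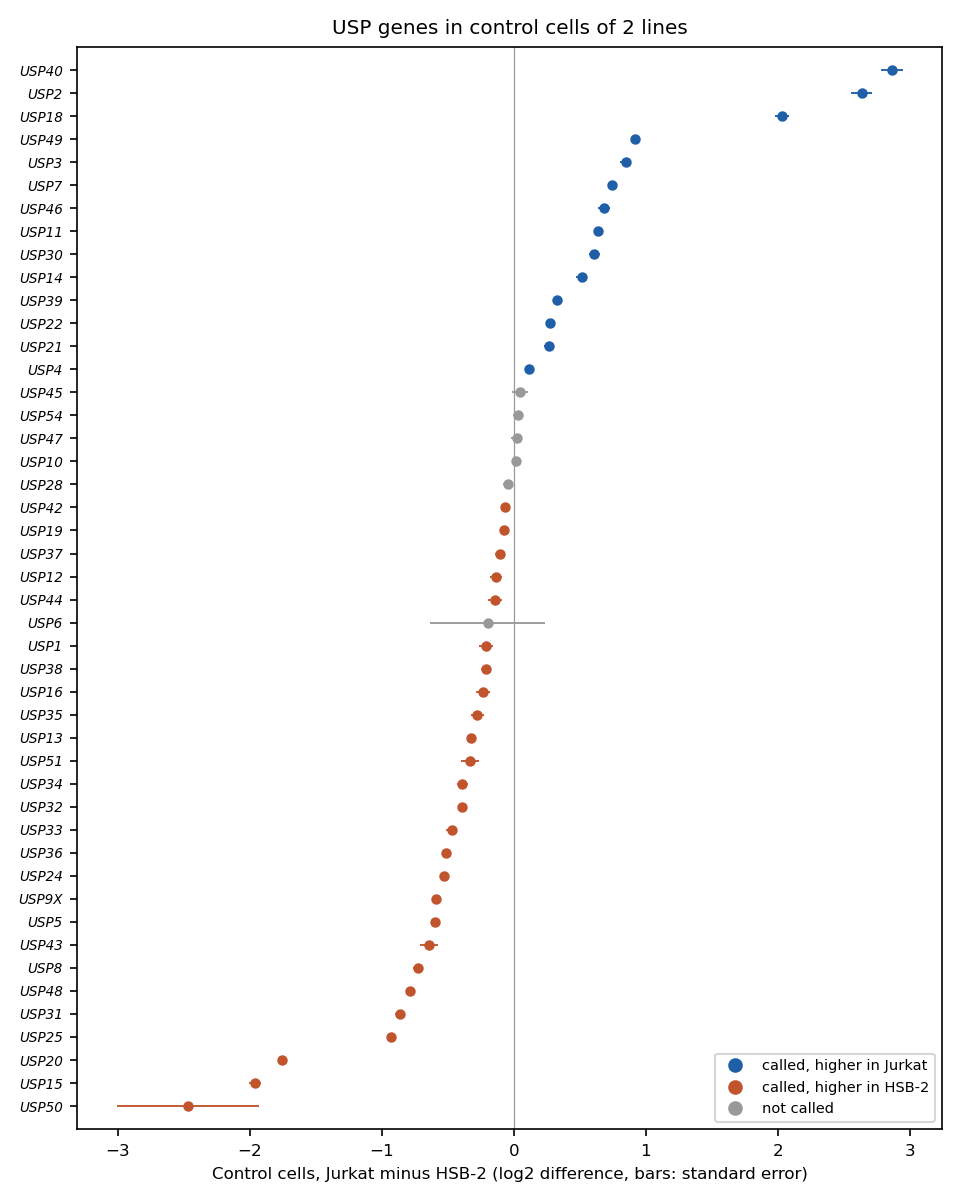
Log2 difference between the control cells of both lines (Jurkat minus HSB-2, x axis) for 46 members, with bars of 1 standard error and colour for the call; USP53 is left out because HSB-2 held a single count. Most points lie within 1 log2 unit of 0, and USP40, USP2 and USP18 stand above 2 at the Jurkat end.

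USP7, the target, was examined first among the responses. Its gene occupies chr16:8985954-9069185 (GRCh37, minus strand). In Jurkat it was 396 and 386 CPM in wild-type, 384 and 387 CPM in scrambled, 140.0 and 145 CPM with shRNA-4057, and 244 and 242 CPM with shRNA-4058. HSB-2 cells held 237 and 243, 227 and 220.1, 144 and 149, and 162 and 156 CPM in that order. All 8 shRNA libraries lay below all controls of their line, and shRNA-4057 left less transcript than shRNA-4058 in both. The pooled log2 fold change against scrambled, with both hairpins as 1 group of 4 libraries, was -0.97 (SE 0.24) in Jurkat and -0.55 (SE 0.06) in HSB-2, both called.

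USP47, the closest relative, was the member that rose most among those called in Jurkat. Its levels in Jurkat were 95.0 and 89.0 CPM in wild-type, 74.7 and 66.8 CPM in scrambled, 95.3 and 105 CPM with shRNA-4057, and 101 and 95.2 CPM with shRNA-4058. The shRNA libraries therefore lay above both scrambled libraries but next to wild-type cells. Against scrambled the log2 fold change was 0.51 (SE 0.08, edgeR adjusted p 0.0033). Against wild-type it was 0.14 (SE 0.07, edgeR adjusted p 0.26). Scrambled cells themselves were 0.38 below wild-type on the log2 scale (edgeR adjusted p 4.6e-05).

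In HSB-2 USP47 was 81.1 and 82.2 CPM in wild-type, 81.0 and 74.1 CPM in scrambled, 78.7 and 82.5 CPM with shRNA-4057 and 77.9 and 69.8 CPM with shRNA-4058. The shRNA libraries, from 69.8 to 82.5 CPM, spanned the controls, from 74.1 to 82.2 CPM, and no change was called (log2 fold change -0.00, SE 0.07). The difference between the lines was called against scrambled (-0.49, SE 0.11, edgeR adjusted p 0.0043) but not against wild-type (-0.18, edgeR adjusted p 0.24).

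**Figure D3:**
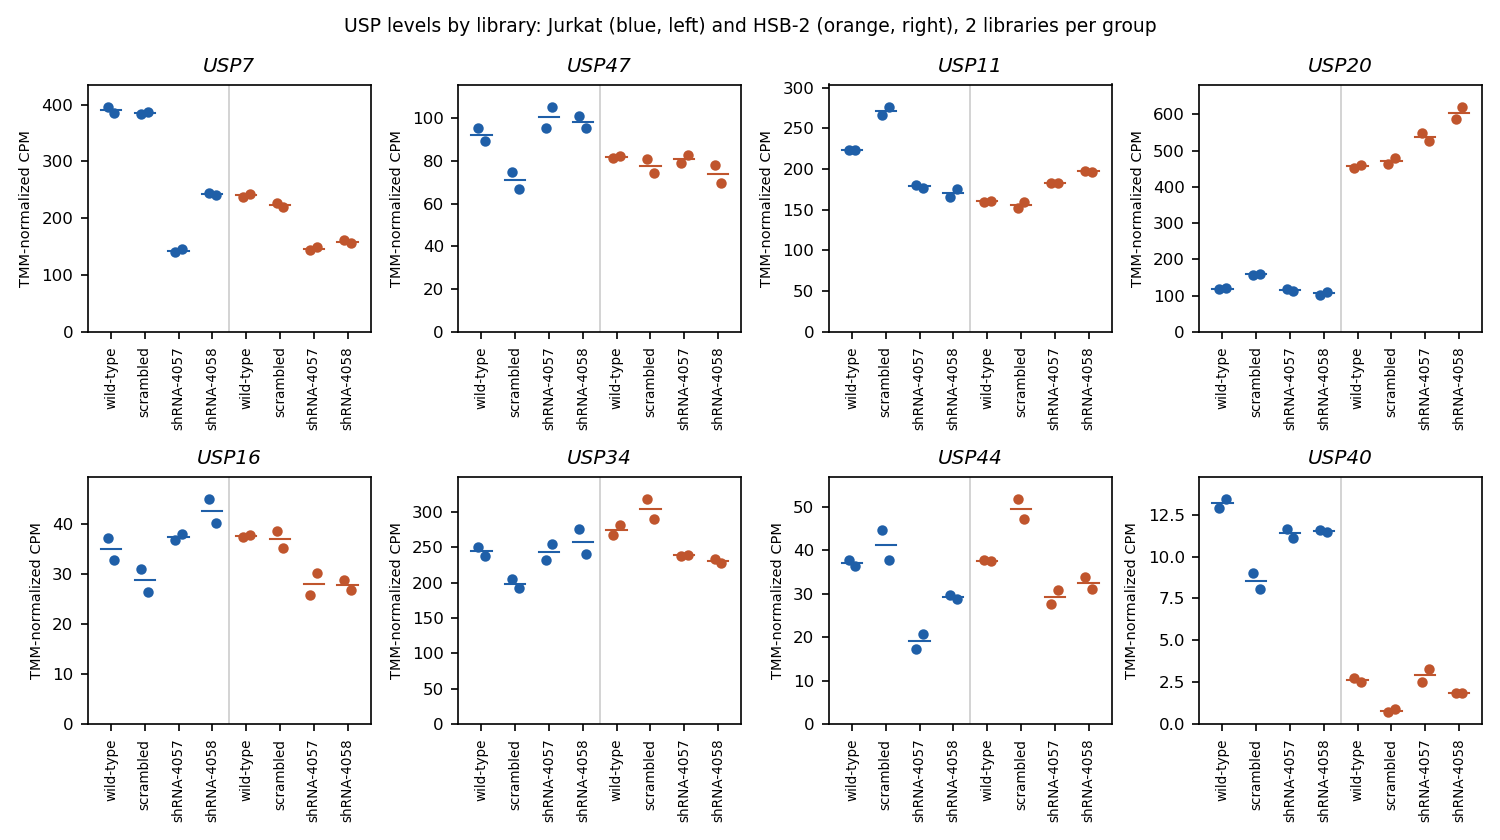
TMM-normalized CPM of USP7, USP47 and 6 other members in each of the 16 libraries (points) with group means (short lines), Jurkat in blue on the left and HSB-2 in orange on the right of each panel; y axes start at 0. USP7 is lower with both hairpins in both lines, whereas USP11 and USP20 are lower than scrambled in Jurkat and higher in HSB-2.

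Over the family, 15 of 47 members were called in Jurkat against scrambled. Of these, 7 rose and 8 fell, USP7 included. Among all genes tested 12.4% were called higher and 15.7% lower, so the members' shares of 14.9% and 17.0% were near the background. The median log2 fold change was 0.04 over the members and 0.02 over all genes, and no member changed by over 2-fold among those called. With a single scrambled library fewer members were called in Jurkat, and USP7 itself was then not called. This drop is not read as a result about the family.

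The members that rose in Jurkat were USP47, USP16, USP40, USP34, USP24, USP36 and USP42. USP16, which removes ubiquitin from histone H2A and is needed in mitosis, was 31.0 and 26.5 CPM in scrambled cells, 36.9 and 38.0 CPM with shRNA-4057 and 45.0 and 40.1 CPM with shRNA-4058 (log2 fold change 0.50, SE 0.11). Wild-type cells held 37.2 and 32.8 CPM and overlapped shRNA-4057 cells. USP34, a very large enzyme that acts on AXIN in Wnt signalling, was 204 and 192 CPM in scrambled cells and between 232 and 275 CPM in the 4 shRNA libraries, which included the wild-type values of 251 and 238 CPM (0.36, SE 0.08). USP24, another large enzyme, behaved alike, with 134 and 126 CPM in scrambled, 161 and 152 CPM in wild-type and 159 to 164 CPM in shRNA libraries (0.33, SE 0.06). USP36, a nucleolar enzyme that acts on MYC, differed in this respect. It was 64.7 and 64.4 CPM in wild-type and 66.2 and 67.8 CPM in scrambled cells, and all shRNA libraries, between 78.9 and 82.6 CPM, lay above both controls. With hairpins pooled, USP36 was the 1 member called higher in Jurkat against wild-type as well (0.36, SE 0.06, edgeR adjusted p 0.015).

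Besides USP7, the members that fell in Jurkat were USP44, USP11, USP20, USP18, USP30, USP28 and USP32. USP44, a histone H2B enzyme of the mitotic checkpoint, was 37.9 and 36.5 CPM in wild-type, 44.6 and 37.8 CPM in scrambled, 17.3 and 20.9 CPM with shRNA-4057, and 29.8 and 28.9 CPM with shRNA-4058. All shRNA libraries lay below all controls. Against scrambled it fell by 0.74 on the log2 scale (SE 0.21, edgeR adjusted p 0.037), and with the replicate number as a block the adjusted p was 0.068. USP11, a relative of USP4 and USP15 with a role in DNA repair, was 224 and 223 CPM in wild-type, 267 and 276 CPM in scrambled, 181 and 177 CPM with shRNA-4057 and 165 and 176 CPM with shRNA-4058. It was lower than both controls in each shRNA library, by -0.61 (SE 0.06) against scrambled and -0.32 (SE 0.06) against wild-type. USP30, an enzyme of the outer mitochondrial membrane that opposes mitophagy, was between 25.8 and 28.3 CPM in the 4 control libraries and between 20.5 and 22.2 CPM in the 4 shRNA libraries (-0.35 against scrambled, SE 0.07). USP20 and USP18 fell against scrambled by 0.49 and 0.46 on the log2 scale. USP20 was higher in scrambled (157 and 160.2 CPM) than in wild-type cells (118 and 121 CPM). Against wild-type USP20 was not called with hairpins pooled (-0.08, edgeR adjusted p 0.51).

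In HSB-2, 22 of 46 members were called against scrambled. Of these, 9 rose and 13 fell, where 20.3% of all genes were called higher and 17.8% lower. The members' shares were 19.6% and 28.3%, and their median log2 fold change was -0.01 against -0.02 over all genes. Leaving out either scrambled library left fewer calls, which is not read as a result about the family.

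USP40 and USP2 were the members over 2-fold higher in HSB-2. USP40 was 0.701 and 0.899 CPM in scrambled, 2.53 and 3.29 CPM with shRNA-4057 and 1.86 and 1.88 CPM with shRNA-4058 (log2 fold change 1.58, SE 0.28). Wild-type cells held 2.73 and 2.52 CPM, so against wild-type the direction turned (-0.14, SE 0.24, edgeR adjusted p 0.70). The same was seen in Jurkat, with 12.9 and 13.4 CPM in wild-type, 9.01 and 8.07 CPM in scrambled and 11.1 to 11.6 CPM in shRNA libraries (0.45 against scrambled, -0.17 against wild-type). Among called members USP40 had the widest scrambled-to-wild-type difference in both lines, -0.62 (SE 0.10) in Jurkat and -1.73 (SE 0.13) in HSB-2.

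USP2 was 2.02 and 1.85 CPM in HSB-2 wild-type, 1.58 and 1.31 CPM in scrambled, 2.64 and 2.19 CPM with shRNA-4057 and 3.56 and 3.91 CPM with shRNA-4058. Each shRNA library was above each control library (1.09, SE 0.24, against scrambled). Against wild-type the value was 0.66 (SE 0.23, edgeR adjusted p 0.073). The other members called higher against scrambled were USP28 (0.37), USP30 (0.33), USP43 (0.30), USP11 (0.28), USP20 (0.28), USP22 (0.24) and USP32 (0.21 on the log2 scale). Against wild-type, with hairpins pooled, USP43 was at 0.00 and USP22 at 0.13, neither called. Each hairpin alone gave a call for USP22 against wild-type (0.17 with shRNA-4057, 0.10 with shRNA-4058) and none for USP43. Under an offset for GC content and length, USP43 and USP22 were at 0.09 and 0.14 against scrambled (edgeR adjusted p 0.41 and 0.11). With the replicate block USP43 and USP32 were not called (edgeR adjusted p 0.070 and 0.055).

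Among the members that fell in HSB-2, USP45, which acts on the repair nuclease subunit ERCC1, was 12.3 and 13.0 CPM in wild-type, 16.3 and 14.3 CPM in scrambled, 8.91 and 9.38 CPM with shRNA-4057 and 9.44 and 8.59 CPM with shRNA-4058 (-0.74, SE 0.09). USP49, a histone H2B enzyme linked to splicing, was 37.7 and 38.8, 47.2 and 46.0, 32.3 and 32.5, and 25.7 and 24.0 CPM in the same order (-0.70, SE 0.12). USP44 was 37.7 and 37.6, 51.8 and 47.3, 27.7 and 30.8, and 33.9 and 31.0 CPM (-0.68, SE 0.08). In these 3 genes all shRNA libraries lay below both controls, and each was also called lower against wild-type (-0.49, -0.42 and -0.29). USP37, which stabilises cyclin A, fell by 0.50 and USP31 by 0.47 on the log2 scale against scrambled. Neither was called against wild-type with hairpins pooled (-0.16 and -0.11, edgeR adjusted p 0.39 and 0.21). With shRNA-4058 alone USP37 was called lower against wild-type (-0.34, edgeR adjusted p 1.7e-05), and with shRNA-4057 it was not (0.02). USP13, USP16, USP34, USP48, USP14, USP24 and USP9X fell by 0.14 to 0.46 on the log2 scale.

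Setting the lines side by side, with separate controls for each, 46 members were tested in both. Of the 15 called in Jurkat and the 22 called in HSB-2, 11 were shared, which is 73.3% of the Jurkat calls and 50% of the HSB-2 calls. Over all genes tested in both lines the shared calls were 43.4% and 31.9%. Of these 11, 3 went the same way (USP7 and USP44 lower, USP40 higher) and 8 went opposite ways. USP11, USP20, USP28, USP30 and USP32 were lower in Jurkat and higher in HSB-2, and USP16, USP24 and USP34 were higher in Jurkat and lower in HSB-2. Opposite calls were also the more frequent in the transcriptome, where 1635 of 2409 genes called in both lines (67.9%) were opposite, against 72.7% of the members.

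**Figure D4:**
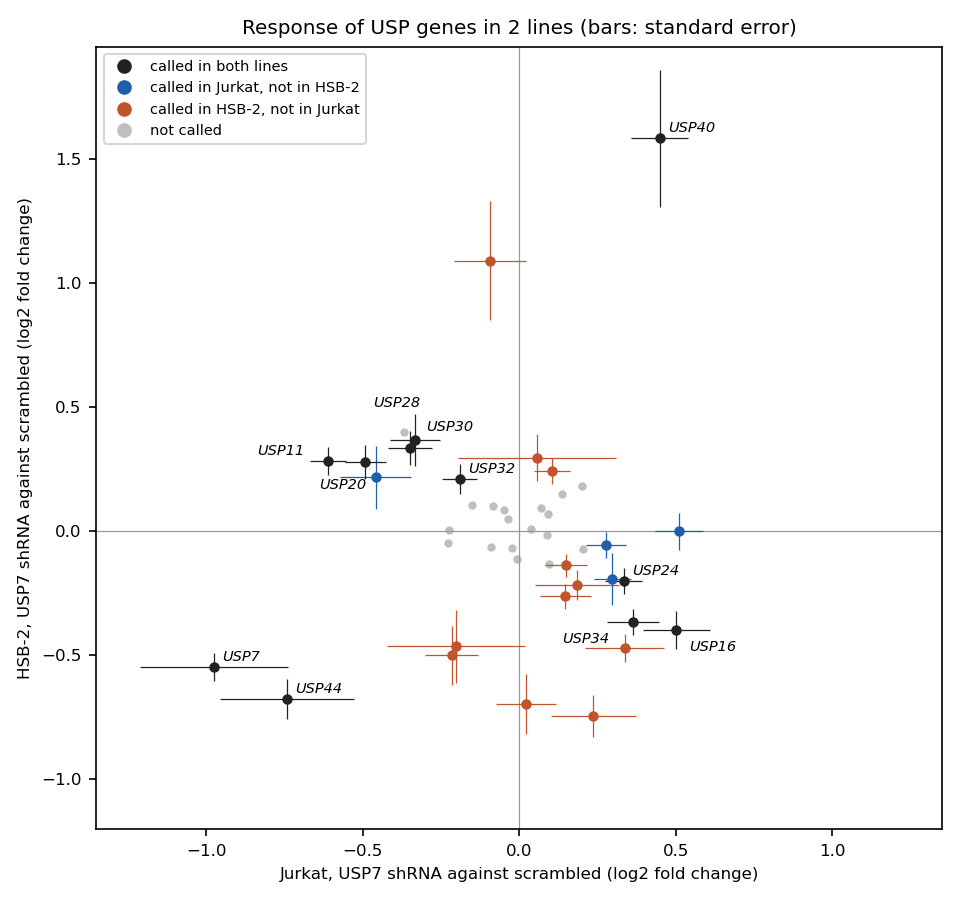
Log2 fold change of USP7 shRNA against scrambled in Jurkat (x axis) and HSB-2 (y axis) for members tested in both lines, with bars of 1 standard error on members called in either line and names on the 11 called in both; USP50, at 2.14 in Jurkat and not called, lies outside the axes. The upper left holds 5 and the lower right 3 of the named members, and USP7 and USP44 lie in the lower left.

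The difference itself was tested as a line-by-treatment interaction (HSB-2 minus Jurkat). It was called positive for 10 and negative for 11 of 47 members, and for 20.6% and 17.1% of all genes. The widest called differences were USP2 (1.21, SE 0.28), USP40 (1.16, SE 0.28), USP45 (-0.96, SE 0.17), USP11 (0.92, SE 0.08) and USP16 (-0.88, SE 0.14). The difference for USP7 was not called with hairpins pooled (0.45, SE 0.27, edgeR adjusted p 0.21). With shRNA-4057 alone in both lines it was called at 0.82 (SE 0.05, edgeR adjusted p 1.7e-12), and with shRNA-4058 alone at 0.17 (SE 0.05, edgeR adjusted p 0.0039). With wild-type cells as controls it remained called for USP2 (1.03), USP45 (-0.53), USP11 (0.60) and USP16 (-0.61), and was not called for USP40 (0.07, edgeR adjusted p 0.90).

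With hairpins pooled, USP30 and USP11 were opposite against both controls. In HSB-2 USP30 was 18.2 and 17.4 CPM in wild-type, 18.0 and 17.7 CPM in scrambled, 21.1 and 21.6 CPM with shRNA-4057 and 23.4 and 23.6 CPM with shRNA-4058. For USP30 the controls were alike in both lines (scrambled minus wild-type 0.02 in Jurkat and -0.00 in HSB-2, log2). Against wild-type USP30 changed by -0.32 (SE 0.07) in Jurkat and 0.33 (SE 0.07) in HSB-2. In HSB-2 USP11 was 160.1 and 161 CPM in wild-type, 153 and 160.2 CPM in scrambled, 183 and 182 CPM with shRNA-4057, and 198 and 196 CPM with shRNA-4058. Against wild-type USP11 was called higher in HSB-2 (0.24, SE 0.05), but with an offset for GC content and length its HSB-2 value against scrambled was 0.08 and not called (edgeR adjusted p 0.21). For USP30 the value under that offset was 0.30 (edgeR adjusted p 0.0078).

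For the other 6 opposite members, Jurkat was not called against wild-type with hairpins pooled. With each hairpin alone, USP32 was called lower in Jurkat against wild-type with both (-0.15 and -0.19, edgeR adjusted p 0.0013 and 0.00011). With shRNA-4058 alone, USP20 (-0.17), USP28 (-0.23) and USP16 (0.28) were also called (edgeR adjusted p 0.0061 or less). With shRNA-4057 these were not called, and USP24 and USP34 were called with neither hairpin. USP20 in HSB-2 was 453 and 460.4 CPM in wild-type, 463 and 479.5 CPM in scrambled, 547 and 527 CPM with shRNA-4057, and 586 and 621 CPM with shRNA-4058. It rose there against either control (0.28 and 0.32), and under the offset for GC content and length it was not called (0.07, edgeR adjusted p 0.33). USP16 in HSB-2 was between 35.1 and 38.7 CPM in the 4 control libraries and between 25.9 and 30.1 CPM in the shRNA libraries (-0.40 against scrambled, -0.43 against wild-type). USP34 was between 267 and 318 CPM in HSB-2 controls and between 228 and 239.6 CPM in shRNA libraries (-0.37 and -0.23). USP24 (-0.20 and -0.19) and USP32 (0.21 and 0.19) were also called against both controls in HSB-2. With hairpins pooled, USP28 was called in HSB-2 against scrambled alone (0.37, and 0.20 with edgeR adjusted p 0.20 against wild-type). With shRNA-4058 alone it was called against wild-type (0.36), and with shRNA-4057 it was not (0.04).

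Groups by role are small, and the shares of all genes called, as above, were 12.4% higher and 15.7% lower in Jurkat and 20.3% and 17.8% in HSB-2. The large enzymes USP9X, USP24 and USP34 were called higher for 2 of 3 in Jurkat and lower for 3 of 3 in HSB-2, and the interaction was called for all 3. Against wild-type neither USP24 nor USP34 was called in Jurkat, and USP9X was not called in HSB-2 (-0.04, edgeR adjusted p 0.54). None of the 3 interactions was called with wild-type controls. Of 8 enzymes of endosomes, membranes and organelles, 3 were lower in Jurkat and 3 were higher in HSB-2, the same USP20, USP30 and USP32 in both. Of 7 histone enzymes, 1 rose and 1 fell in Jurkat, and 1 rose (USP22) and 3 fell (USP16, USP44 and USP49) in HSB-2. The 3 enzymes activated by the cofactor UAF1 (USP1, USP12 and USP46) were not called in either line with hairpins pooled, at log2 fold changes from -0.13 to 0.09. Against wild-type USP46 was called lower in Jurkat with each hairpin alone (-0.34 and -0.20, edgeR adjusted p 0.00026 and 0.022). USP1 was called higher there with shRNA-4058 (0.39, edgeR adjusted p 0.00020) and not with shRNA-4057 (-0.07). In HSB-2 USP12 was called higher against wild-type with shRNA-4057 (0.17, edgeR adjusted p 0.034) and not with shRNA-4058. Of the 3 enzymes of ubiquitin recycling and the proteasome (USP5, USP13 and USP14) none was called in Jurkat and 2 were lower in HSB-2. With hairpins pooled, both HSB-2 calls, USP13 and USP14, were lost against wild-type (edgeR adjusted p 0.19 and 0.23). Both were also lost under the offset for GC and length (edgeR adjusted p 0.088 and 0.15). With shRNA-4057 alone USP13 was called lower against wild-type in HSB-2 (-0.56, edgeR adjusted p 5.2e-10). With shRNA-4058 alone it was not (-0.06, edgeR adjusted p 0.29), and USP14 was called with neither. Of USP2, USP10 and USP42, which act on MDM2 or p53 as USP7 does, USP42 rose in Jurkat (0.28) and USP2 in HSB-2 with hairpins pooled. USP10 was not called in either line with hairpins pooled. With shRNA-4057 alone USP10 was called lower against wild-type in Jurkat (-0.29, edgeR adjusted p 1.0e-06) and in HSB-2 (-0.15, edgeR adjusted p 0.0036). With shRNA-4058 alone it was called in neither line (0.08 and -0.02).

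Each hairpin was also tested alone, in a model of all 16 libraries whose error is the spread between replicates. Here 13 members were higher and 14 lower with shRNA-4057 in Jurkat, beside 22.7% and 27.3% of all genes. With shRNA-4058 in Jurkat 15 were higher and 15 lower (19.7% and 26.7% of all genes). In HSB-2, 11 were higher and 15 lower with shRNA-4057 (21.9% and 21.7% of all genes), and 11 were higher and 16 lower with shRNA-4058 (26.6% and 26.2%). Since the hairpins share the scrambled libraries of their line, their counts are not independent.

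Tested against each other, shRNA-4057 was higher than shRNA-4058 for 8 members and lower for 13 in Jurkat (17.7% and 16.2% of all genes), and higher for 5 and lower for 10 in HSB-2 (10.5% and 14.3%). USP13, a relative of USP5, differed between hairpins in both lines. In Jurkat USP13 was 69.7 and 66.1 CPM in scrambled, 43.8 and 45.2 CPM with shRNA-4057 and 73.8 and 69.0 CPM with shRNA-4058. HSB-2 cells held 93.8 and 94.4, 55.9 and 56.8, and 80.7 and 78.7 CPM in the same order. The hairpin difference of USP13 was -0.68 (SE 0.04) in Jurkat and -0.50 (SE 0.04) in HSB-2 on the log2 scale, close in size to that of USP7 in Jurkat (-0.77, SE 0.03) and above that of USP7 in HSB-2 (-0.12, SE 0.03). USP44 also followed the stronger hairpin in Jurkat (-0.62, SE 0.08). USP43 (0.72) and USP35 (0.61) were higher with shRNA-4057 in Jurkat, and both moved against scrambled in opposite directions with the hairpins (0.35 and -0.37 for USP43, 0.25 and -0.37 for USP35). In HSB-2, USP40 was 0.65 higher and USP2 0.62 lower with shRNA-4057.

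Scrambled and wild-type cells, neither of which carried a hairpin against USP7, also differed in the family. In Jurkat 6 members were higher and 9 lower in scrambled cells, beside 14.8% and 11% of all genes. In HSB-2 11 were higher and 11 lower, beside 16.1% and 17.9%. In the same model each hairpin against scrambled gave 27 and 30 calls in Jurkat and 26 and 27 in HSB-2. After USP40, the widest called differences were USP20 (0.41) and USP47 (-0.38) in Jurkat and USP2 (-0.43) and USP44 (0.40) in HSB-2. With wild-type cells in place of scrambled and hairpins pooled, 1 member was higher and 3 were lower in Jurkat (3.1% and 5.31% of all genes). In the same setting 5 were higher and 9 lower in HSB-2 (13.3% and 11.8%). In Jurkat these were USP36, and USP7, USP11 and USP30. In HSB-2 they were USP11, USP20, USP30, USP32 and USP51, and USP7, USP15, USP16, USP24, USP34, USP35, USP44, USP45 and USP49. The part of the vector in the values against scrambled was not tested beyond these comparisons.

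The summed level of the family was examined for a rise that would offset the loss of USP7. Without USP7 the members summed to 508 and 498 CPM per kb in Jurkat wild-type, 523 and 509.8 CPM per kb in scrambled, 474 and 482 CPM per kb with shRNA-4057 and 507 and 499.6 CPM per kb with shRNA-4058. The sum with shRNA-4057 was thus below both controls, and that with shRNA-4058 overlapped wild-type cells. In HSB-2 the sums were 562 and 569.7, 583 and 573, 580.5 and 583, and 593 and 592 CPM per kb in the same order. The shRNA-4058 libraries lay above all HSB-2 controls, and those with shRNA-4057 overlapped scrambled cells. These sums include USP20, the most abundant member in HSB-2 at 84.2 CPM per kb in controls. With shRNA-4058 USP20 was 0.40 above wild-type on the log2 scale (SE 0.04). A sum without USP20 was not examined, so the higher sum does not show a rise shared by the members. The share of USP7 in the family went from 8.16% ± 0.03 (SD, n = 2) in Jurkat wild-type and 7.87% ± 0.17 in scrambled cells to 3.30% ± 0.05 with shRNA-4057 and 5.23% ± 0.02 with shRNA-4058. In HSB-2 it went from 4.63% ± 0.04 and 4.24% ± 0.04 to 2.80% ± 0.06 and 2.98% ± 0.07. The sums rest on TMM scaling. Without it, the family with USP7 took 0.410% of the counts in Jurkat wild-type and 0.363% in scrambled cells. It took 0.398% with shRNA-4057 and 0.431% with shRNA-4058. In HSB-2 these mean shares were 0.411%, 0.435%, 0.386% and 0.379% in the same order. Against scrambled the unscaled share was thus higher in Jurkat and lower in HSB-2 with both hairpins. The sums were not tested.

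**Figure D5:**
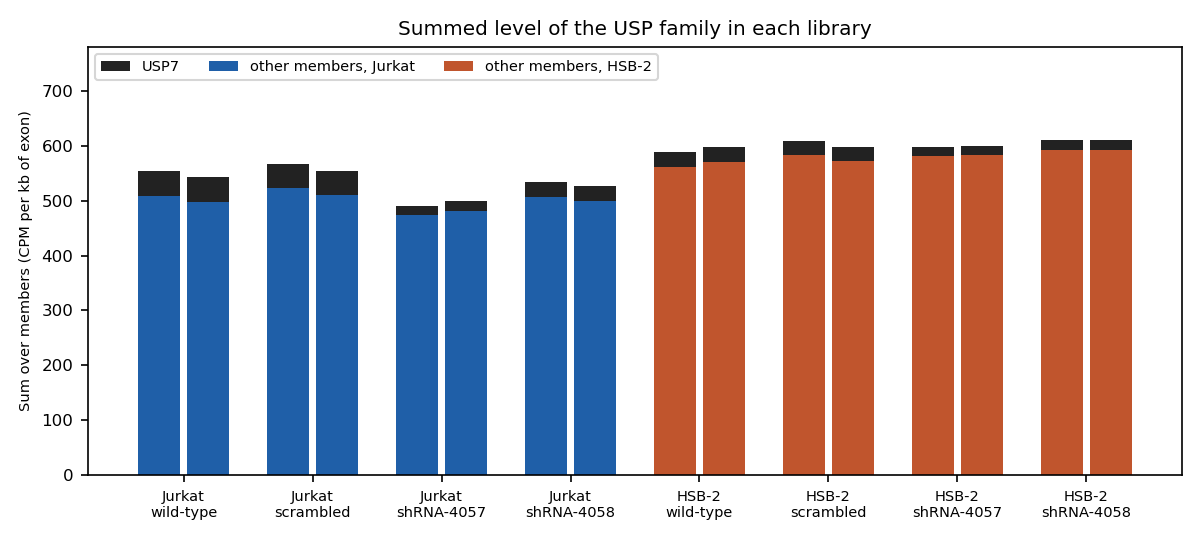
Summed level of the family in each library in CPM per kb of exon, with USP7 in black on top of the other members (blue for Jurkat, orange for HSB-2); bars start at 0 and stand in pairs of replicates. The black part shrinks with both hairpins, and the coloured part stays between 474 and 523 in Jurkat and between 562 and 593 in HSB-2.

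Other deubiquitylating enzymes gave a reference outside the family. Of 43 listed genes of the UCH, OTU, Josephin, JAMM, MINDY and related families 42 were matched and 39 tested. Against scrambled, with hairpins pooled, 5 were called higher and 9 lower in Jurkat, and 11 higher and 8 lower in HSB-2. The medians were -0.04 and 0.01 on the log2 scale. These are 12.8% and 23.1% of the list in Jurkat, beside 12.4% and 15.7% of all genes, and 28.2% and 20.5% in HSB-2, beside 20.3% and 17.8%. TNFAIP3, an OTU enzyme that restrains NF-κB, fell by 1.5 (SE 0.06) in Jurkat and rose by 0.95 (SE 0.06) in HSB-2 on the log2 scale. STAMBPL1, a JAMM enzyme of endosomes, moved likewise (-1.08, SE 0.08, and 0.61, SE 0.09). CYLD, whose USP fold stands without a USP symbol and which also limits NF-κB, rose against scrambled in both lines (0.37, SE 0.11, and 0.53, SE 0.08). Values against wild-type are not given for the genes of this paragraph. Scrambled minus wild-type (log2) ran from -0.38 to 0.15 in Jurkat and from -0.52 to 0.19 in HSB-2 over the 3 genes with this fold and no USP symbol. Over the 13 OTU genes tested it ran from -0.21 to 0.71 in Jurkat and from -0.76 to 0.27 in HSB-2. Of 6 activators and partners of USP enzymes, WDR48, which encodes UAF1, fell in both lines (-0.25, SE 0.06, and -0.27, SE 0.08). In HSB-2, the SAGA partners of USP22 were called in opposite directions, ATXN7L3 higher (0.31, SE 0.06) and ENY2 lower (-0.30, SE 0.06).

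The response of the members varied with their base composition. Across members, Spearman's rho was taken between the GC content of a gene's longest transcript and the log2 fold change. It was -0.30 in Jurkat (47 members), 0.41 in HSB-2 (46 members) and 0.54 for the interaction (47 members). Over all genes the same values were -0.11, 0.27 and 0.22. Genes of a fit share their libraries, so these are descriptions. In HSB-2 the members that rose had a median GC content of 53.2% and those that fell 41.4%, and USP20, the member with the highest GC content at 60.3%, was among those that rose. The part of base composition in the calls was not tested beyond the offset for GC content and length.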

How the data were processed

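RNA-seq libraries depleted of ribosomal RNA were made from 2 cell lines, 8 groups of 2. The deposited values were whole-number read counts per Ensembl gene. According to the study's methods and the submitters' processing notes, the authors aligned reads with BWA to GRCh37 (hg19) and counted them with HTSeq 0.6.1p1. The notes also list STAR and CASAVA without a role, and the annotation release and strand setting are not given in the sources used here. Symbols were matched to 55538 of 57820 ids. Genes that passed filterByExpr were tested with edgeR 4.0.16 in R 4.3.3 (TMM, quasi-likelihood F-test, Benjamini-Hochberg adjustment over all genes tested, call at 0.05), and SE is the log2 fold change divided by the square root of F. Both hairpins were pooled against scrambled within each line (6 libraries), and hairpins, controls and lines were compared in a model of all 16 libraries. The interaction used the 12 scrambled and shRNA libraries. The steps were tested on simulated data. With 76.6 M counts or more per library, a floor of 3 counts was at most 0.0444 CPM, for counting error only. The rule named USP7 and USP47, the 6 members that rose most and the 6 that fell most per line with the same sign in each hairpin, the 8 at each end of the line comparison, the 5 widest interactions, the 3 widest scrambled to wild-type differences per line and members removed by the filter. Other members were named after their values were seen. The members and lists were chosen with earlier results of these data known. Alternatives were DESeq2 1.42.0, other normalization, filters, controls and offsets, a replicate block, and each library left out.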

Additional observations from a re-analysis of the deposited data

Results flagged for a closer look

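The response to USP7 shRNA differed between the lines, by the edgeR test of the interaction, for 21 of 47 members. The 15 given here are those with the largest absolute values among the called, and the other 6 were USP4, USP9X, USP32, USP39, USP42 and USP48. The values are HSB-2 minus Jurkat on the log2 scale. The response was higher in HSB-2 for USP2 (1.21), USP40 (1.16), USP11 (0.92), USP20 (0.79), USP28 (0.72), USP30 (0.71) and USP18 (0.70). It was lower in HSB-2 for USP45 (-0.96), USP16 (-0.88), USP31 (-0.78), USP34 (-0.71), USP49 (-0.70), USP24 (-0.51), USP47 (-0.49) and USP36 (-0.47). With wild-type cells as controls, 7 of the 15 were called (USP2, USP11, USP16, USP20, USP30, USP36 and USP45) and 8 were not, namely USP18 (0.12), USP24 (-0.22), USP28 (0.38), USP31 (-0.26), USP34 (-0.25), USP40 (0.07), USP47 (-0.18) and USP49 (-0.36). Groups of 2 libraries were too small for a test of single outlying samples.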

How the results depend on the processing

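With hairpins pooled and wild-type cells in place of scrambled, members called went from 15 to 4 in Jurkat and from 22 to 14 in HSB-2. The interaction went from 21 to 10 calls, and USP40 turned direction in both lines (-0.17 in Jurkat, -0.14 in HSB-2). How many of all genes kept an interaction call with wild-type controls is not given here. The drop to 10 is therefore not read as specific to the family. With hairpins as separate groups Jurkat had 33 calls. With shRNA-4058 alone, an alternative chosen after seeing the data, the interaction had 34. Both used the model of all 16 libraries, which also called more of all genes. For shRNA-4057 in Jurkat that model called 22.7% higher and 27.3% lower, beside 12.4% and 15.7% with hairpins pooled. That is a different comparison, and the shares of all genes that belong to the 33 and 34 calls are not given here. These counts are therefore not read as a result about the family. Leaving out 1 library gave 2 to 16 calls in Jurkat (5 and 2 without scrambled replicate 1 and 2), 8 to 20 in HSB-2 (8 and 12 without scrambled replicate 1 and 2), 9 to 15 between hairpins in HSB-2 (9 without shRNA-4058 replicate 1; all libraries gave 15) and 11 to 15 between HSB-2 scrambled and wild-type (11 and 14 without wild-type replicate 1 and 2, 12 without scrambled replicate 1), where all libraries gave 22. A lone scrambled library is assumed to vary like the other groups. Counts with 1 library left out are not read as a result about the family. The split of higher and lower calls moved in HSB-2 with shRNA-4058 from 11 and 16 to 18 and 13 with DESeq2 size factors. Under an offset for GC and length, scrambled against wild-type moved from 6 and 9 to 12 and 7 in Jurkat and from 11 and 11 to 19 and 7 in HSB-2. Shares of all genes under these settings are not given here, so the splits are not read as a result about the family. Deviations of same-numbered libraries correlated from -0.54 to 0.62 over 28 pairs of groups. Jurkat shRNA-4057, HSB-2 wild-type and HSB-2 shRNA-4057 correlated positively with each other and negatively with all other groups. Those other groups correlated positively among themselves. A replicate block assumes the same direction in every group, so it cannot absorb this pattern, and calls kept or lost under it say little about it. With the replicate block Jurkat had 13 calls, HSB-2 18 and the interaction 19, and the calls lost were USP44 and USP32 in Jurkat (edgeR adjusted p 0.068 and 0.094), USP13, USP9X, USP32 and USP43 in HSB-2 (0.060, 0.0998, 0.055 and 0.070) and USP4 and USP39 for the interaction (0.057 and 0.068). The cause of these changes was not tested.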
